A study of Macaca mulatta with 12 samples.

Results

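The genes described here serve the endoplasmic reticulum, where antibody chains are made, folded and checked. They were chosen by symbol as 43 genes of protein targeting, translocation, signal peptide cleavage, chaperoning, disulfide formation, degradation and unfolded protein sensing. Of these, 41 were among the 22584 genes of the deposited count matrix, and all 41 are accounted for below. SELENOS and the spliced form XBP1S were not analysed here. XBP1, whose count holds both splice forms, was read with 60 related genes of the same pathway.

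A signal recognition particle brings the ribosome to the membrane, the SEC61 translocon passes the growing chain through, signal peptidase removes the leader, and chaperones and disulfide isomerases fold the chain. Chains that fail to fold are drawn back out and degraded. The sensors ERN1, ATF6 and EIF2AK3 adjust the whole machinery to load, and the ERN1 to XBP1 branch is known for its part in the making of plasma cells.

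Blood was taken from 6 juvenile rhesus macaques, Indian-origin animals 2 to 3 years old that were healthy and had not been manipulated. Batch 1 held the 2 males and batch 2 held the 4 females, and these factors cannot be told apart. Animals were sedated with ketamine, in some with dexmedetomidine, before the femoral vein was bled, and mononuclear cells were captured with 10x 5' chemistry. Each animal gave an expression library and, from the same material, a B cell receptor library, which counts heavy chain molecules as unique molecular identifiers (UMIs). Below, an animal goes by its sex and a running number.

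Of 13849 cells, the 525 that the authors named Contamination were set aside, which left 13324 B cells in 12 subtypes, between 563 and 3048 per animal. Median UMIs per cell were 4079 and 4018 in the males and lay between 5770 and 6736 in the females. In all, 96 cell barcodes occurred in more than 1 library. Counts were summed per animal and subtype or class, with at least 10 cells to a sum, and are given per 1000000 UMIs (CPM) of named genes other than immunoglobulin genes. In such a sum, fewer cells with a gene and less RNA per cell cannot be told apart. The subtype names were made by the authors from these expression values, so differences between subtypes are described without a test. Class came from the receptor library and was tested.

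Summed over all their cells, antibody-secreting cells carried the markers of their label, but most of the JCHAIN and SDC1 signal came from a minority of them. JCHAIN, the joining chain of polymeric antibody, reached 11820 CPM over all 56 antibody-secreting cells and 84.6 CPM over the 13268 other B cells. TNFRSF17, the receptor BCMA, reached 236 CPM in antibody-secreting cells and 2.99 CPM in the others, and SDC1, which encodes CD138, was at 18.4 CPM in antibody-secreting cells and 0 in the others. MS4A1, which encodes CD20, was at 47.9 CPM in antibody-secreting cells and 1260 CPM in the others. In the 13 cells with 100 or more heavy chain UMIs in the receptor library, JCHAIN was at 19508 CPM and SDC1 at 36.5 CPM. In the 19 cells with fewer heavy chain UMIs JCHAIN was at 1265 CPM, with a UMI in 11 cells, and in the 24 cells with no heavy chain read it was at 7532 CPM, with a UMI in 8 cells. Here and below only productive heavy chains were counted, so no heavy chain read means that no productive one was found. SDC1 was at 0 in both of these groups. JCHAIN was at 1990 CPM over the cells with no heavy chain read when the 1 such cell of female 2 was left out. The 19 antibody-secreting cells of female 4 had JCHAIN at 399 CPM, against 167 CPM in its other B cells, and SDC1 at 0. JCHAIN and SDC1 were thus weaker in the cells with few or no heavy chain UMIs and in female 4. IRF4, another marker of these cells, ran the other way between the groups, as given below. TNFRSF17, PRDM1 and CD38 are not given by group. The authors' own predicted type was Plasmablast for 53 of the 56.

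On average over the animals, antibody-secreting cells held far more RNA of the secretory genes than any other subtype. The 41 genes summed to 43451 CPM in female 1, 47012 CPM in female 3 and 7901 CPM in female 4, the 3 animals with 10 or more such cells. Their mean was 32788 ± 21626 CPM (SD, n = 3), and the means of the 11 other subtypes ran from 3268 ± 385 CPM in Naive B cells 3 (n = 4) to 5929 ± 509 CPM in Activated B cells (n = 6). On this scale, which leaves out unnamed and immunoglobulin genes, all 3 animals stood above every other subtype mean. Female 4 stood far below the other 2. Differences below are of log2(CPM + 5) between a subtype and the mean of the other subtypes, within an animal and with antibody-secreting cells left out of that mean. The added 5 shrinks the differences of genes with low levels. Each subtype counts equally in that mean, whatever its number of cells, so subtypes low for a gene pull the mean down. By that measure 29 of 41 genes were higher in antibody-secreting cells of all 3 animals and 1 was lower in all 3. The median difference of the 41 was 2.13, against -0.04 for 7896 genes with a mean of 10 CPM or more, of which 21.8% were higher in every animal. A mean difference over 1 was reached by 29 of the 41 genes and by 14.4% of the 7896. Unnamed and immunoglobulin genes took 54.5% of the UMIs of antibody-secreting cells on average, and from 13.9% to 19.7% in the other subtypes. With those genes kept in the denominator the mean summed level was 14325 CPM, against 4261.5 CPM pooled over all other B cells. Counted so, female 4 stood below the pooled other B cells. Its place above them, and its differences here and below, are on the scale that leaves those genes out.

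**Figure D1:**
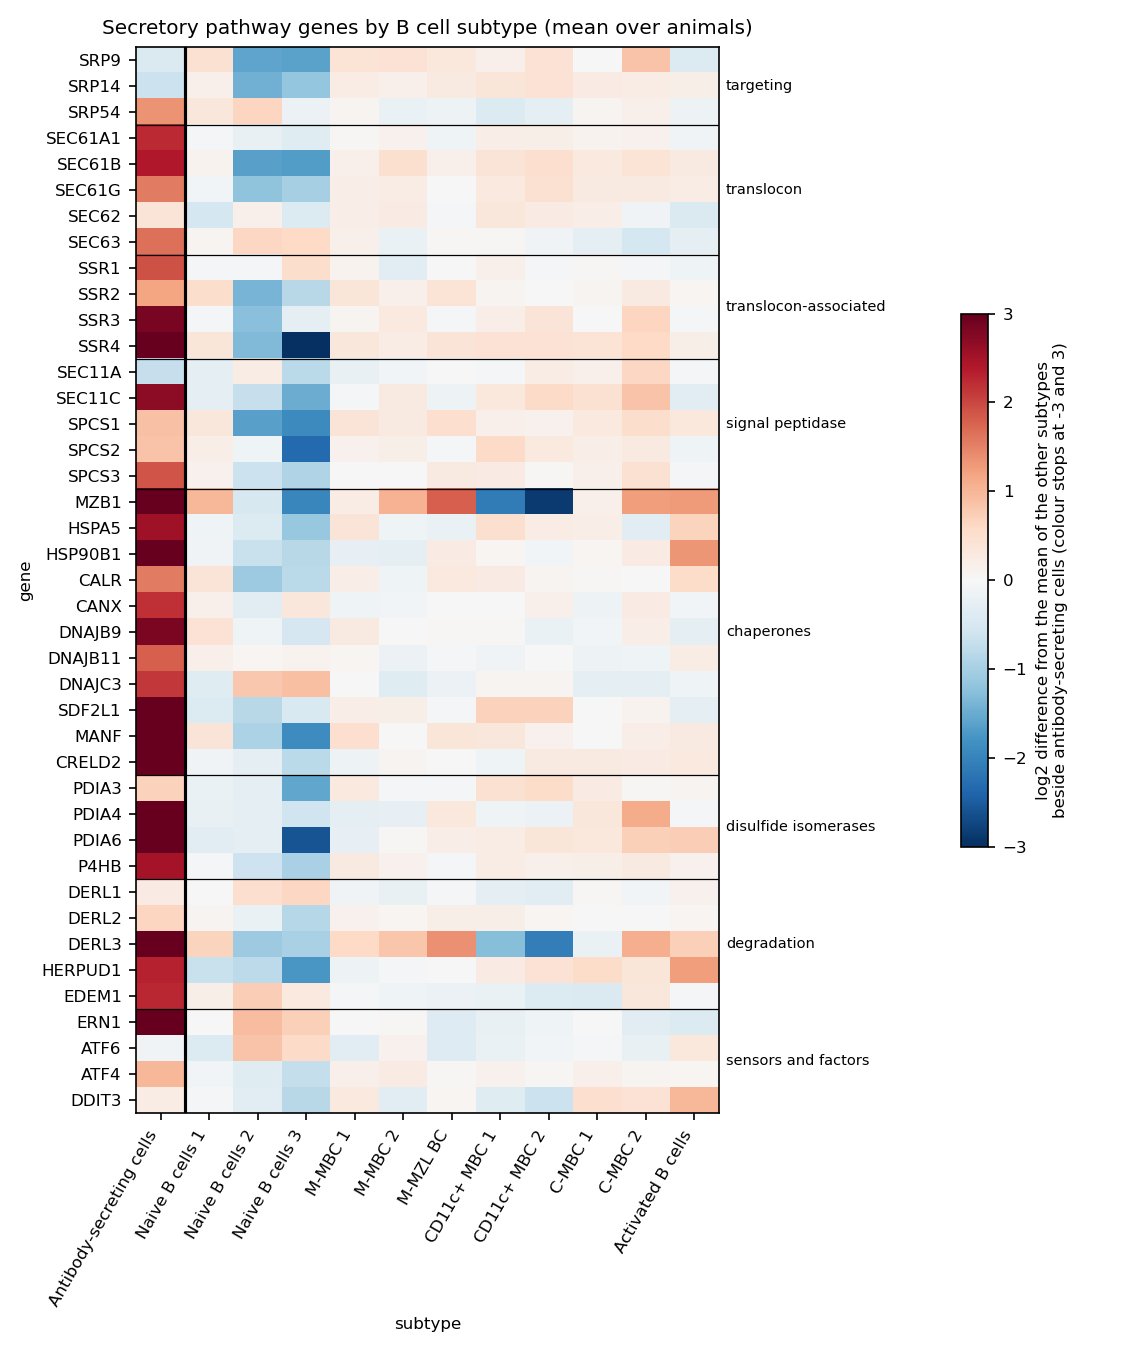
Mean log2 difference of each of the 41 genes between a subtype and the mean of the other subtypes, with antibody-secreting cells left out of that mean. Rows are genes grouped by role, columns are subtypes with antibody-secreting cells first, and colour runs from -3 (blue, lower) to 3 (red, higher). MZB1 and DERL3 stand out as blue in both CD11c+ subtypes and are red in several others, among them M-MZL BC and C-MBC 2.

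Among targeting genes, 1 of 3 was higher in antibody-secreting cells of all 3 animals. SRP54, the subunit that binds the signal sequence, was 1.35 ± 0.13 higher on the log2 scale. SRP14, which with SRP9 forms the part that slows translation, was at 188 CPM in female 1, 142 CPM in female 3 and 188 CPM in female 4, a mean difference of -0.65 ± 0.21. It was the gene that was lower in all 3. SRP9 differed by -0.44 ± 1.74, with both directions among the animals.

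All 5 translocon genes were higher in all 3 animals by this measure. SEC61B, a small subunit of the channel, was at 1776, 1578 and 141 CPM in females 1, 3 and 4. SEC63, which recruits HSPA5 to the channel, was at 397, 425 and 305 CPM in the same animals, a difference of 1.64 ± 0.02. SEC63 was thus nearly even among the animals, while SEC61B in female 4 lay far below the other 2. Pooled over all other B cells of female 4, SEC61B was at 186 CPM, above the level of its antibody-secreting cells. The channel-forming SEC61A1 (2.23 ± 1.504), SEC61G (1.56 ± 1.10) and SEC62 (0.38 ± 0.40) had smaller mean differences than SEC61B (2.40 ± 1.84). Of the 4 translocon-associated genes 3 were higher in all animals by this measure, and SSR4 was at 2643, 3378 and 188 CPM (difference 3.00 ± 2.25). Pooled other B cells of female 4 had more SSR4, at 222 CPM. SSR3 (2.86 ± 1.79) and SSR1 (1.91 ± 1.02) were the others, while SSR2 (1.17 ± 1.68) was higher in 2 of 3.

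Among the 5 signal peptidase genes, SEC11C and SPCS3 were higher in all 3 animals. SEC11C, one of a pair of alternative catalytic subunits, was at 1212, 1355 and 70.3 CPM in females 1, 3 and 4. Pooled other B cells of female 4 had more SEC11C, at 79.2 CPM. SEC11A, the other catalytic subunit, was at 31.3, 80.9 and 0 CPM, a difference of -0.70 ± 1.98. The levels of SEC11C in females 1 and 3 were above those of every other subtype, and SEC11A showed no common direction. SPCS3 differed by 1.90 ± 1.45. SPCS1 (0.88 ± 2.504) and SPCS2 (0.84 ± 1.67), also subunits of the complex, were higher in 2 of 3 animals and were both at 23.4 CPM in female 4. Levels this low or at 0 in female 4, here and below, rest on very few UMIs, as does its SEC11C level. The levels of SRP14, SEC61B, SSR4, DNAJB9 and DERL3 in female 4 also rest on few UMIs.

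Of 11 chaperones and cofactors 10 were higher in all 3 animals. MZB1, a lymphocyte cochaperone that works with HSP90B1 on antibody assembly, was at 6089, 3237 and 258 CPM, a difference of 5.06 ± 1.98 and the largest of the 41. HSP90B1, the reticulum's HSP90, was at 6768, 14868 and 891 CPM (3.71 ± 1.92), and HSPA5, the HSP70 also called BiP, was at 2945, 3560 and 844 CPM (2.53 ± 1.34). MANF and SDF2L1, which both bind HSPA5, differed by 3.47 ± 1.42 and 3.24 ± 1.21. CRELD2, a reticulum protein raised by misfolding, was at 407 and 283 CPM in females 1 and 3 and at 0 in female 4 (3.35 ± 3.29). The lectin chaperones CANX (2.18 ± 0.82) and CALR (1.57 ± 0.68) and the HSPA5 cochaperones DNAJB9 (2.82 ± 0.31), DNAJC3 (2.13 ± 0.85) and DNAJB11 (1.78 ± 1.14) were higher in all 3. DNAJB9 was the most even of these among the animals, at 219, 303 and 188 CPM, though few UMIs stand behind the level of female 4.

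Among the 4 disulfide isomerases, PDIA4 was at 1097, 1052 and 258 CPM (4.10 ± 1.23) and PDIA6 at 1034, 688 and 117 CPM (3.41 ± 1.18). P4HB, the classic disulfide isomerase, differed by 2.49 ± 0.80 and was higher in all 3 animals, and PDIA3 (0.70 ± 1.17) in 2 of 3. Of 5 degradation genes 3 were higher in all animals. DERL3, a derlin of secretory cells that helps draw out misfolded proteins, was at 1755, 1477 and 188 CPM (4.42 ± 1.03). HERPUD1, which assembles the degradation complex, was at 1765, 4127 and 469 CPM (2.301 ± 1.44), and EDEM1 differed by 2.27 ± 0.90. DERL1 was at 397 and 364 CPM in females 1 and 3 and at 0 in female 4 (0.25 ± 3.69), and DERL2, a related derlin, differed by 0.65 ± 0.72, so neither had a common direction.

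The sensors and factors split. ERN1, the sensor also called IRE1, was at 1128, 587 and 375 CPM (4.69 ± 0.64), the second largest difference of the 41. Its target XBP1 was at 1514, 1578 and 234 CPM (3.39 ± 1.25). ATF6, a second sensor, differed by -0.10 ± 0.53, and DDIT3, the stress factor CHOP, by 0.22 ± 0.58. ATF4, a translation-controlled stress factor, was higher in all 3 animals by 0.99 ± 0.40.

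**Figure D2:**
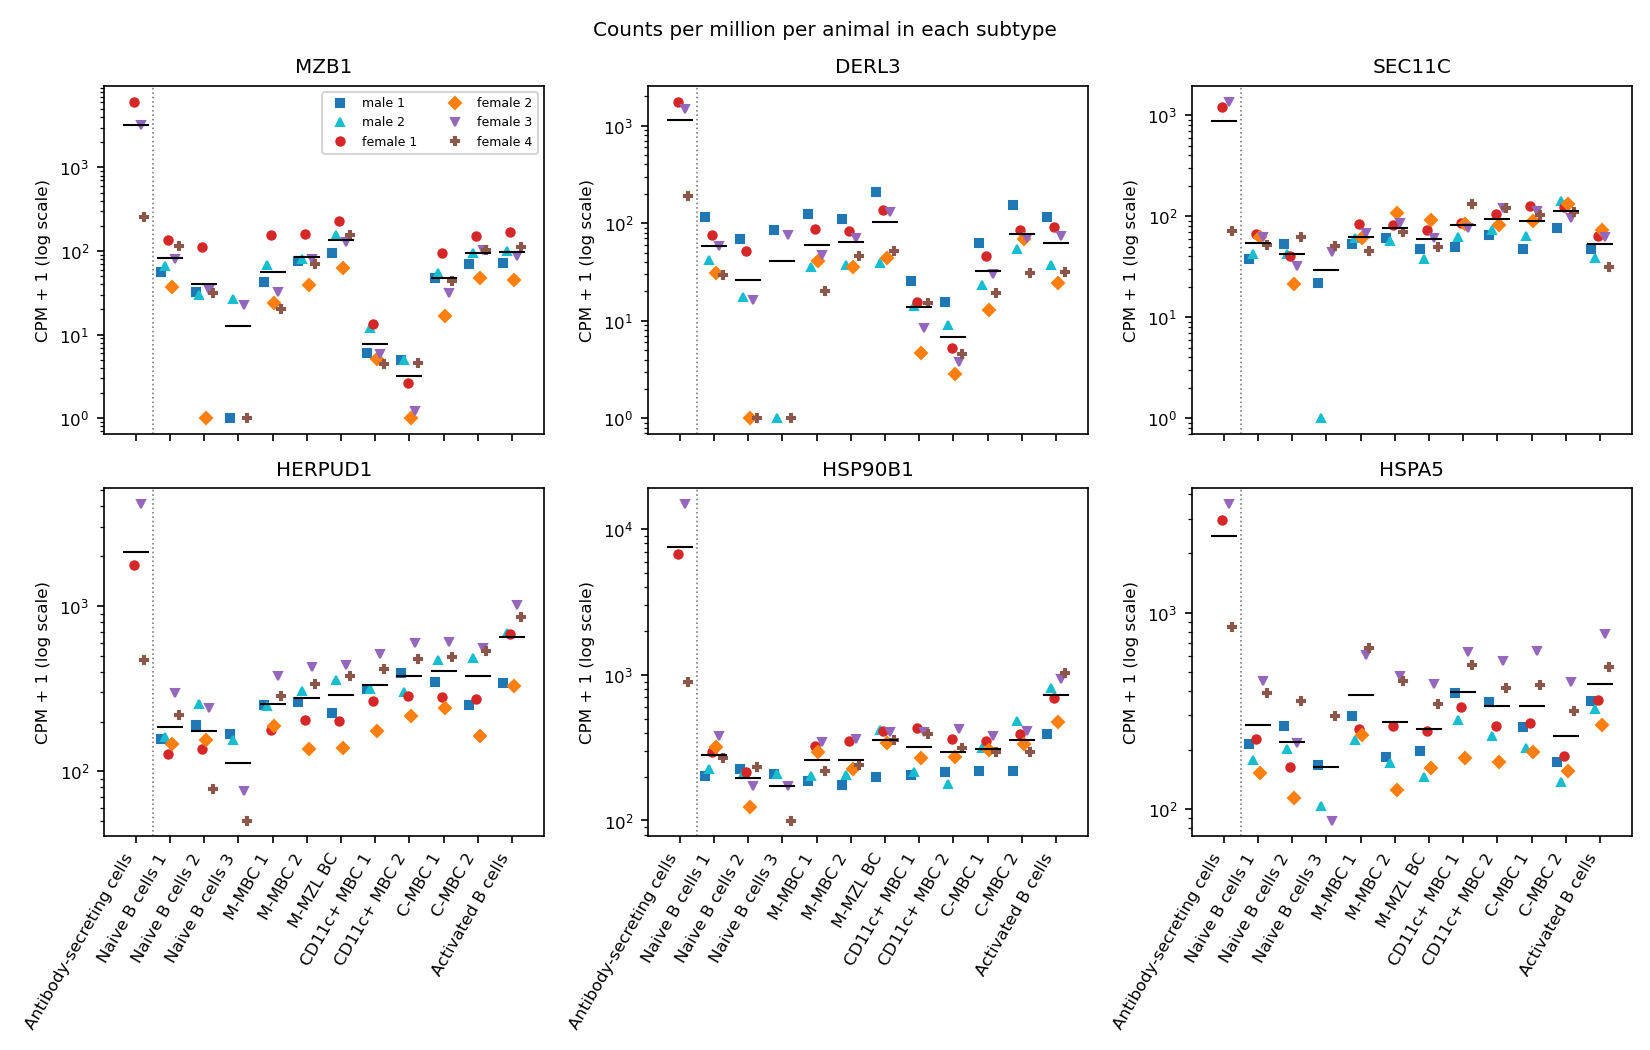
CPM + 1 on a log axis for 6 genes, by subtype; each point is 1 animal, the bar is the mean, and the dotted line sets antibody-secreting cells apart. The CD11c+ subtypes have the lowest means for MZB1 and DERL3, and for HSP90B1 the mean of Activated B cells is the highest after antibody-secreting cells.

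The 56 antibody-secreting cells were unlike each other. They were grouped by their heavy chain counts in the receptor library, and the groups overlapped in the share that the 41 genes took. A bound of 100 heavy chain UMIs, chosen after the data were seen, left 13 cells at or above it (114 to 12304, median 1796), 19 below it (5 to 97, median 13) and 24 with no productive heavy chain read. The 41 genes took 4.93% of named UMIs in the median cell of the first group (1.64% to 11.9%), 0.828% in the second (0.333% to 2.31%) and 0.802% in the third (0 to 2.80%). Among the 13268 other B cells the 5th, 50th and 95th percentiles were 0.270%, 0.484% and 0.751%, and 0 of them reached the 1.64% of the lowest cell of the first group.

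Summed over cells, the 41 genes reached 53729 CPM in cells with 100 or more heavy chain UMIs (95% exact Poisson interval 52507 to 54971), 10631 CPM in those with fewer (9910 to 11390) and 14533 CPM in those with none (13572 to 15544). These intervals cover counting error only. MZB1 was at 5584, 553 and 1198 CPM in the 3 groups, DERL3 at 2149, 224 and 616 CPM, and SEC11C at 1542, 119 and 171 CPM. ERN1 was at 870, 356 and 890 CPM. In the group with no heavy chain read, 1 cell of female 2 held 26 of the 36 DERL3 counts and 23 of the 52 ERN1 counts, and 1 cell of female 1 held 10 more of ERN1. The cell of female 2 held 5482 light chain UMIs in the receptor library. Without that cell of female 2, the group was at 224 CPM for DERL3, 648 CPM for ERN1 and 805 CPM for MZB1, and the 41 genes summed to 10398 CPM. Without female 1, cells with 100 or more heavy chain UMIs were at 516 CPM for ERN1 and 3708 CPM for MZB1. Without female 1, cells with fewer were at 117 CPM for DERL3 and 234 CPM for MZB1. Leaving out an animal in this way was added after the data were seen. DDIT3 ran the other way, at 65.8, 158 and 171 CPM.

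Other values moved with this division, and their part in it was not tested. The median cell held 20294 UMIs with 100 or more heavy chain UMIs, 5232 with fewer and 2810.5 with none. MKI67, a gene of dividing cells, was at 14.6, 1067 and 1164 CPM in the same order and at 6.16 CPM in the other B cells. Mitochondrial genes took 1.36%, 4.67% and 3.88% of UMIs in the median cell of the 3 groups. IRF4, a factor of plasma cell formation and a marker of antibody-secreting cells, was at 197, 1014 and 753 CPM, and at 214 CPM in the other B cells. The first group held 7 IgG, 3 IgM, 2 IgA and 1 IgE cells, and the second 13 IgA, 3 IgG, 2 IgM and 1 IgE cells.

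The animals had unequal shares of these groups. Female 1 gave 7 of its 10 cells to the group with 100 or more heavy chain UMIs, female 3 gave 2 of 14, and female 4 gave 0 of 19. Over the 32 cells with a heavy chain, Spearman's rho between heavy chain UMIs and the share of the 41 genes was 0.85, and that between heavy chain UMIs and total UMIs was 0.84. The cells share libraries and depth, so these are descriptions.

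**Figure D3:**
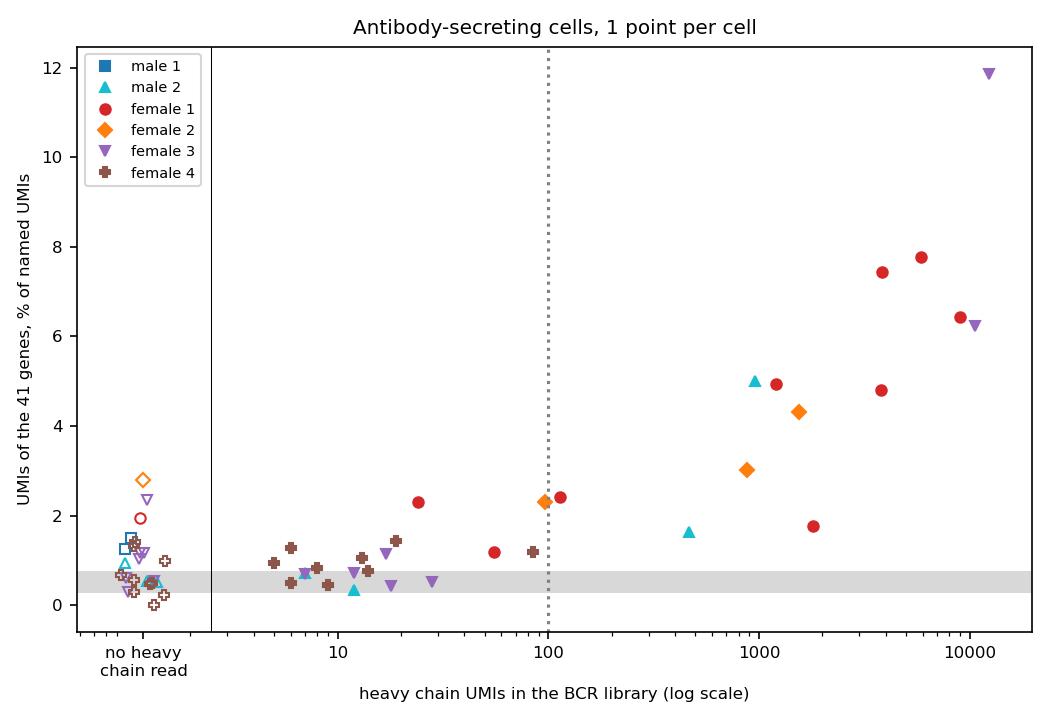
Percent of named UMIs from the 41 genes in each antibody-secreting cell against its heavy chain UMIs (log axis), with cells that had no heavy chain read as open symbols at the left. The dotted line marks 100 heavy chain UMIs and the grey band the 5th to 95th percentile of the other B cells; the 13 cells right of the line lie at 1.64% or more.

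Outside antibody-secreting cells, 8 B cells had 100 or more heavy chain UMIs. Of these 7 were C-MBC 2 cells, 5 of them IgA and 2 IgE, with 100 to 237 heavy chain UMIs. The 41 genes took 0.626% to 1.28% of their named UMIs (median 0.786%), and summed to 8423 CPM in these 7 cells and 5171 CPM in the 334 C-MBC 2 cells with fewer. The eighth was an IgM cell of M-MZL BC, at 0.740%.

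Among the other subtypes, MZB1 and DERL3 set M-MZL BC and the CD11c+ subtypes furthest apart. M-MZL BC, the marginal zone-like subtype, had from 61.8 to 225 CPM of MZB1 over the 6 animals (median 140.5), a difference of 1.80 ± 0.25 from the mean of the other subtypes. CD11c+ MBC 1 had from 3.51 to 12.5 CPM (median 4.91; -2.10 ± 0.41), and CD11c+ MBC 2 from 0 to 3.99 CPM (median 2.60; -2.86 ± 0.74). No animal's value in either CD11c+ subtype reached the lowest value of M-MZL BC, and the CD11c+ subtypes overlapped each other.

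The order of MZB1 by mean level was M-MZL BC (136 CPM), Activated B cells (97.0), C-MBC 2 (94.0), M-MBC 2 (83.2), Naive B cells 1 (80.6), M-MBC 1 (55.9), C-MBC 1 (46.8), then Naive B cells 2 (39.5) and 3 (11.8), CD11c+ MBC 1 (6.84) and CD11c+ MBC 2 (2.23). Every pair of neighbours in this order had overlapping ranges over animals. DERL3 was likewise higher in M-MZL BC (1.38 ± 0.36) and lower in CD11c+ MBC 1 (-1.27 ± 0.73) and CD11c+ MBC 2 (-2.07 ± 0.71), each in 6 of 6 animals.

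The CD11c+ subtypes were not low for the list as a whole. In CD11c+ MBC 1, SDF2L1 (0.68), SPCS2, a signal peptidase subunit (0.56), and HSPA5 (0.48) were higher in 6 of 6 animals. In CD11c+ MBC 2, SDF2L1 (0.69), SEC11C (0.57) and PDIA3, an isomerase for glycoproteins (0.54), were higher in 6 of 6, and DDIT3 (-0.64) was lower in 6 of 6. The next lowest gene in CD11c+ MBC 1 after MZB1 and DERL3 was SRP54 (-0.41).

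Activated B cells showed a different set. HSP90B1 (1.32 ± 0.47), MZB1 (1.28 ± 0.24) and HERPUD1 (1.25 ± 0.47) were higher in 6 of 6 animals. HERPUD1 was at 326 to 1018 CPM there (median 682), against 126 to 295 CPM in Naive B cells 1 (median 158), and these ranges did not overlap. SEC62, a translocon partner (-0.43), was lower in 6 of 6, while ERN1 and SRP9 (each -0.41) were of mixed direction. Markers of antibody-secreting cells summed to 1171 ± 232 CPM in Activated B cells, the highest of the 11 subtypes, and their part in these values was not tested.

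C-MBC 2 carried MZB1 (1.26 ± 0.28), PDIA4 (1.12 ± 0.28) and DERL3 (1.09 ± 0.44) higher in 6 of 6 animals, with SEC63 (-0.52), HSPA5 (-0.35) and ERN1 (-0.31) lowest. C-MBC 1 had HERPUD1 (0.56), DDIT3 (0.50) and SEC11C (0.46) highest, and EDEM1, which marks glycoproteins for degradation (-0.42), DNAJC3, an HSPA5 cochaperone (-0.29), and SEC63 (-0.28) lowest. In M-MBC 2, MZB1 (1.05), DERL3 (0.83) and SEC61B (0.49) were highest and DNAJC3 (-0.36), DDIT3 (-0.34) and SSR1 (-0.31) lowest. In M-MBC 1, DERL3 (0.61), MANF (0.50) and SRP9 (0.42) were highest and ATF6 (-0.33), PDIA4 (-0.29) and PDIA6 (-0.25) lowest. In M-MZL BC the third highest was SPCS1, of signal peptidase (0.50), and ERN1 (-0.38), ATF6 (-0.38) and HSPA5 (-0.20) were lowest.

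The naive subtypes differed among themselves. Naive B cells 1 had MZB1 (0.99), DERL3 (0.66) and SSR2 (0.53) highest and HERPUD1 (-0.67), SEC62 (-0.52) and ATF6 (-0.41) lowest. Naive B cells 2 had ERN1 (0.92), ATF6 (0.85) and DNAJC3 (0.81) highest and SPCS1 (-1.63), SEC61B (-1.63) and SRP9 (-1.58) lowest. Naive B cells 3 had DNAJC3 (0.91), ERN1 (0.71) and DERL1, another derlin (0.61), highest and SSR4 (-3.07), PDIA6 (-2.59) and SPCS2 (-2.34) lowest. In Naive B cells 2 and 3 each, 16 of 41 genes were lower in every animal, and their medians were -0.34 and -0.83. Of the 7896 genes, 11.6% and 17.7% were lower in every animal, with medians of 0.21 and -0.22. Ribosomal protein genes took 5.38% and 6.88% of UMIs in these subtypes, against 13.8% to 21.2% in the others outside antibody-secreting cells, and the part of that in the result was not tested.

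By class, with antibody-secreting cells left out, the 41 genes summed to 5491 ± 273 CPM in IgA cells (n = 5), 5029 ± 351 in IgG cells, 4946 ± 265 in IgM cells and 4883 ± 354 in IgD cells (n = 6 each). The IgA mean lacks female 2, whose IgA cells were too few. Its sums were the lowest in IgG (4589 CPM), IgM (4594 CPM) and IgD cells (4519 CPM), as was its MZB1 in each. The IgA means are thus over another set of animals. MZB1 was at 87.9 ± 22.7 CPM in IgA, 28.1 ± 17.8 in IgG, 79.9 ± 37.3 in IgM and 61.5 ± 34.7 in IgD cells. DERL3 was at 106 ± 58.7, 26.1 ± 18.1, 58.3 ± 40.3 and 47.4 ± 39.7 CPM in the same order. SEC11C instead was at 90.2 ± 14.0 CPM in IgA, 103 ± 22.2 in IgG, 62.7 ± 14.1 in IgM and 61.2 ± 22.4 in IgD cells.

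Class-switched cells (IgG, IgA and IgE, 2353 cells) were next set against unswitched cells (IgM and IgD, 7908 cells) in all 6 animals. Switched cells had less MZB1 and DERL3 RNA and more of SEC11C, SEC11A, HERPUD1, PDIA6, PDIA4 and SEC61G. Counts were tested with edgeR's quasi-likelihood test blocked by animal, with p-values adjusted over all genes by the method of Benjamini and Hochberg, and a gene with adjusted p under 0.05 is called. Of the 41 genes 6 were called higher and 2 lower, where 13.3% of 9638 genes were called higher and 11.4% lower. The count of higher calls was near that background and the count of lower calls below it. Their median log2 difference was 0.05, against 0.00 for all genes. These p-values weigh the class difference within animals against its spread over the animals and the counting error. Differences in level between animals were blocked out.

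MZB1 was at 9.96, 31.2 and 62.1 CPM (lowest, median and highest animal) in switched cells and at 27.7, 70.1 and 129 CPM in unswitched cells. The ranges overlapped, but MZB1 was lower in switched cells of 6 of 6 animals, by -1.22 on the log2 scale (SE 0.10, adjusted p = 7.31e-07). DERL3 was at 12.5, 26.6 and 72.3 CPM in switched cells and at 26.8, 40.5 and 130 CPM in unswitched cells, lower in 5 of 6 animals (-0.87, SE 0.13, adjusted p = 0.000175). Both calls were absent when antibody-secreting cells were kept, with MZB1 at -0.39 (adjusted p = 0.142) and DERL3 at -0.28 (adjusted p = 0.190), and then 13 of the 41 genes were called higher and 0 lower, where 13.3% of 9649 genes were called higher and 11.7% lower.

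SEC11C was at 73.2, 105 and 124 CPM in switched cells and at 45.6, 61.7 and 77.2 CPM in unswitched cells, higher in 6 of 6 animals (0.72, SE 0.09, adjusted p = 2.48e-05). SEC11A averaged 46.8 ± 8.36 CPM in switched and 34.7 ± 7.48 CPM in unswitched cells (0.38, adjusted p = 0.00849, higher in 6 of 6). Both catalytic subunits of signal peptidase thus rose, with ranges that overlapped. HERPUD1 averaged 370 ± 138 CPM in switched and 304 ± 112 CPM in unswitched cells, higher in 6 of 6 (0.28, SE 0.06, adjusted p = 0.00249).

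PDIA6 (0.40, adjusted p = 0.0164) and PDIA4 (0.36, adjusted p = 0.0335) were higher in 5 of 6 animals, and SEC61G, the gamma subunit of the translocon (0.18, adjusted p = 0.0391), in 6 of 6. HSPA5 averaged 319 ± 151 CPM in switched and 314 ± 145 CPM in unswitched cells (0.02, adjusted p = 0.808), and XBP1 94.8 and 95.2 CPM (adjusted p = 0.995). The SEC61G call was lost on leaving out female 2, 3 or 4 or either male (adjusted p 0.0666 to 0.0982), and the PDIA4 call without female 1, 3 or 4 or either male (0.0510 to 0.0945). PDIA6 lost its call without female 3 (0.28, adjusted p = 0.132).

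Within batch 2, MZB1 (-1.25), DERL3 (-1.04), SEC11C (0.69) and HERPUD1 (0.33) were called, and within batch 1, MZB1 (-1.12, adjusted p = 0.0176) and SEC11C (0.78, adjusted p = 0.0291). The other called genes had the same direction in both batches, and a test of whether the switched difference itself differed between them called 0 of 41 genes. Other values moved with class, and their part in the result was not tested. Both CD11c+ subtypes together were 30.2% to 59.9% of switched and 5.92% to 32.5% of unswitched cells, and M-MZL BC was 0.877% to 4.38% of switched and 11.1% to 36.8% of unswitched cells. Median UMIs per cell were 4205 to 7855 in switched and 3875 to 6461.5 in unswitched cells, and higher in switched cells of all 6 animals. Ribosomal protein genes took 13.6% to 17.5% of UMIs in switched and 15.1% to 20.1% in unswitched cells, and mitochondrial genes 1.52% to 2.94% and 1.74% to 3.13%, both lower in switched cells of all 6. Of 6 T cell markers 1 was called higher and 3 lower, with sums of 46.6 to 216 CPM in switched and 85.9 to 217 CPM in unswitched cells.

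**Figure D4:**
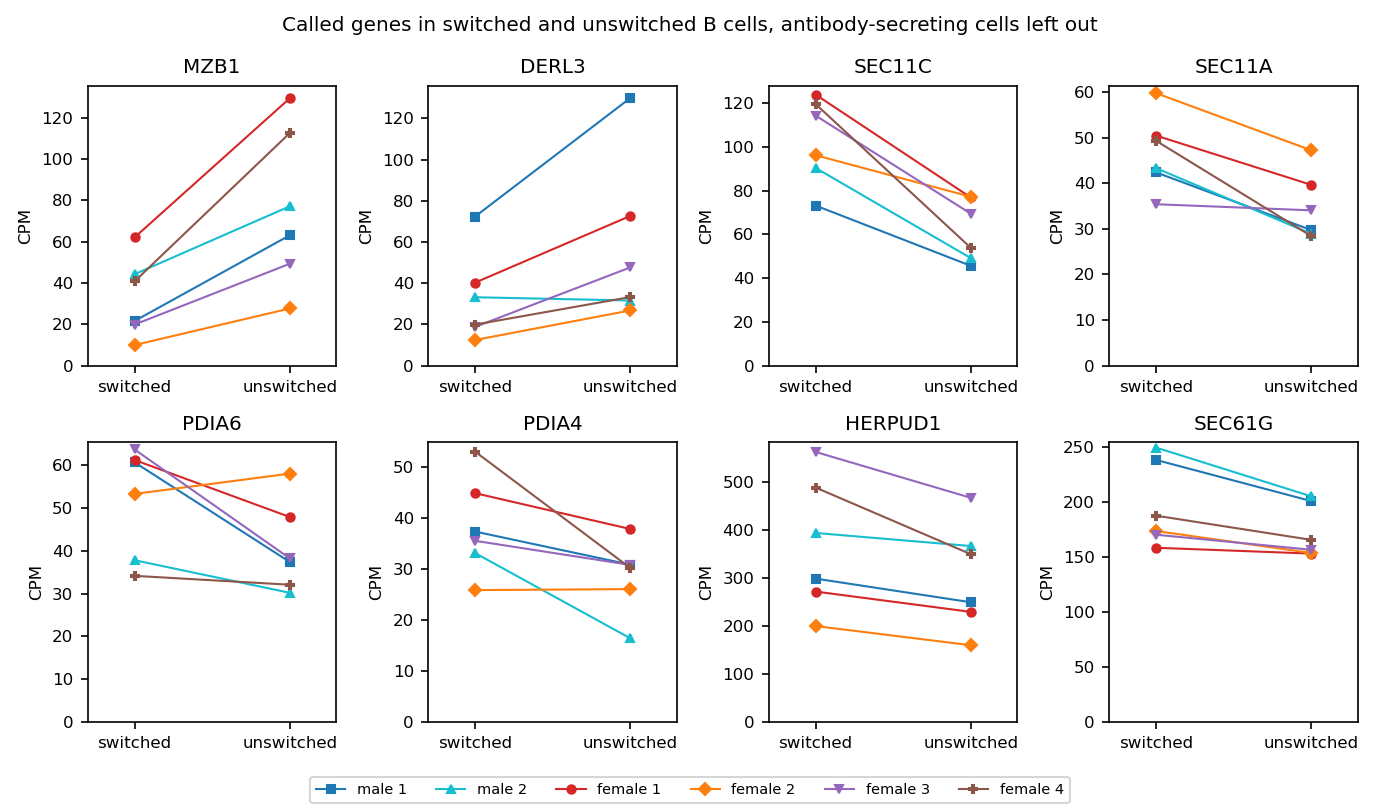
CPM of the 8 called genes in switched and unswitched B cells, with 1 line per animal and antibody-secreting cells left out. Lines for MZB1 climb toward unswitched cells in all 6 animals, and those for SEC11C, SEC11A, HERPUD1 and SEC61G fall in all 6.

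The related genes gave 5 higher and 1 lower of 58 tested. KDELR2, which retrieves escaped reticulum proteins, was at 99.996 ± 23.1 CPM in switched and 78.8 ± 15.2 CPM in unswitched cells (0.33, adjusted p = 0.00622), and TRAM1, a translocon partner (0.22), and LMAN2, a cargo lectin (0.25), were also higher. ERO1B, an oxidase that recharges the isomerases, was at 113 ± 14.6 CPM in switched and 183 ± 33.5 CPM in unswitched cells, with no overlap of the ranges (-0.66, adjusted p = 2.90e-05).

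Restricting both classes to memory subtypes (names with MBC, 2274 switched and 4359 unswitched cells) set naive and other subtypes aside. Of the 41 genes 5 were called higher and 2 lower, where 7.11% of 9247 genes were called higher and 6.93% lower. SEC11C was at 70.4, 106 and 125 CPM in switched and at 48.7, 68.1 and 81.7 CPM in unswitched memory cells, higher in 6 of 6 animals (0.61, SE 0.08, adjusted p = 2.25e-05). HERPUD1 was higher in 6 of 6 (0.30, adjusted p = 0.00168), as were PDIA4 (0.46, adjusted p = 0.0223) and SEC11A (0.37, adjusted p = 0.0190), and PDIA6 was higher in 4 of 6 (0.46, adjusted p = 0.00659). MZB1 averaged 31.6 ± 19.8 CPM in switched and 48.2 ± 32.6 CPM in unswitched memory cells, lower in 6 of 6 (-0.59, SE 0.12, adjusted p = 0.00246). DERL3 was lower in 4 of 6 (-0.41, adjusted p = 0.0318), and HSPA5 was not called (-0.05, adjusted p = 0.584).

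When sums were made per animal and memory subtype and both entered as blocks, which left 38 of the 41 genes among 5049, 2 calls were made, 1 in each direction, where 1.17% of these genes were called higher and 1.45% lower. SEC11C was higher by 0.44 (adjusted p = 0.00103) and MZB1 lower (-0.56, adjusted p = 0.0328). HERPUD1 (0.03, adjusted p = 0.919), PDIA4 (0.06, adjusted p = 0.949), SEC11A (0.12, adjusted p = 0.794), PDIA6 (0.29, adjusted p = 0.137) and DERL3 (-0.21, adjusted p = 0.652) were not called in it. Without female 1, MZB1 (-0.46, adjusted p = 0.0614), DERL3 (-0.31, adjusted p = 0.233) and SEC11A (0.39, adjusted p = 0.0565) lost their calls. DERL3 and SEC11A also lost theirs without female 2 (adjusted p = 0.0830 and 0.0711), DERL3 and PDIA6 without female 3 (0.131 and 0.0631), and PDIA4 without male 1 (0.0740).

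Within batch 2, SEC11C (0.60), HERPUD1 (0.33), PDIA6 (0.38), MZB1 (-0.64) and DERL3 (-0.60) were called, and within batch 1, PDIA4 (1.11) and SEC11C (0.64). DERL3 stood at -0.03 in batch 1. Of 57 related genes 2 were higher, PPP1R15A, which restores translation after stress (0.33, adjusted p = 0.0211), and CHAC1, a glutathione-cleaving enzyme of the ATF4 branch (1.03, adjusted p = 0.0272). ERO1B was lower again (-0.48, adjusted p = 4.16e-05), and XBP1 (-0.06, adjusted p = 0.767) was not called.

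IgA cells (130) were set against IgG cells (1925) in the 5 animals with 10 or more of each. IgA cells had more DERL3, MZB1, DDIT3 and SEC11A RNA and less HSPA5 and SDF2L1. Of the 40 genes tested 4 were called higher and 2 lower, where 5.51% of 6477 genes were called higher and 7.74% lower. CRELD2, with 7 counts in IgA cells and 56 in IgG cells, fell to the filter on low counts.

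DERL3 was at 121, 74.8, 61.6, 203 and 71.2 CPM in IgA cells of females 1, 3 and 4 and males 1 and 2, and at 34.0, 16.4, 15.0, 58.1 and 25.5 CPM in their IgG cells. Every IgA value lay above every IgG value (1.84, SE 0.23, adjusted p = 5.21e-07). MZB1 was at 121, 83.6, 96.8, 59.2 and 79.1 CPM in IgA cells and at 57.6, 17.1, 34.4, 17.5 and 34.0 CPM in IgG cells of the same animals. These ranges did not overlap either (1.499, SE 0.24, adjusted p = 3.74e-05).

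DDIT3 was at 151, 273, 343, 355 and 206 CPM in IgA cells and at 76.98, 126, 166, 254 and 126 CPM in IgG cells, higher in 5 of 5 animals with overlapping ranges (0.85, SE 0.15, adjusted p = 0.000122). SEC11A averaged 74.6 ± 17.8 CPM in IgA and 40.6 ± 6.95 CPM in IgG cells (0.82, adjusted p = 0.0206), with no overlap. HSPA5 averaged 252 ± 84.5 CPM in IgA and 359 ± 145 CPM in IgG cells, lower in 5 of 5 (-0.51, adjusted p = 0.0110). SDF2L1, on 21 counts in IgA and 574 in IgG cells, averaged 21.2 ± 10.7 CPM in IgA and 47.0 ± 4.40 CPM in IgG cells, with no overlap (-0.997, adjusted p = 0.0331). SEC11C (-0.31, adjusted p = 0.386) and HERPUD1 (0.17, adjusted p = 0.541) were not called.

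Most IgA cells belonged to 1 subtype, since C-MBC 2 made up 58.3% to 80.0% of IgA and 4.42% to 15.3% of IgG cells in these animals. Both CD11c+ subtypes together, which were lowest for MZB1 and DERL3, were 0 to 12.5% of IgA and 33.3% to 61.7% of IgG cells. Within C-MBC 2 alone, an alternative added after the data were seen, MZB1 averaged 96.0 ± 24.9 CPM in IgA and 91.0 ± 46.2 CPM in IgG cells and was not called (-0.06, adjusted p = 0.968). DERL3 averaged 113 ± 65.8 CPM in IgA and 72.1 ± 47.2 CPM in IgG cells (0.61, adjusted p = 0.334), and DDIT3 stayed called at 308 ± 82.1 CPM in IgA and 187 ± 95.3 CPM in IgG cells (0.69, adjusted p = 0.0468). HSPA5 averaged 237 ± 104 CPM in IgA and 227 ± 115 CPM in IgG cells (-0.01, adjusted p = 0.999), and SEC11A 81.1 ± 26.5 CPM in IgA and 47.3 ± 10.5 CPM in IgG cells (0.70, adjusted p = 0.430), and neither was called there. SDF2L1, at 21.6 ± 11.4 CPM in IgA and 38.8 ± 6.33 CPM in IgG cells, was not among the 30 of the 41 genes that passed the filter. The fit within C-MBC 2 called 0.481% of 2910 genes higher and 1.24% lower. Antibody-secreting cell markers summed to 702 to 1100 CPM in IgA and 198 to 455 CPM in IgG cells, with SDC1 at 0, and cycling markers to 26.4 to 79.1 CPM in IgA and 12.9 to 31.0 CPM in IgG cells. Markers of plasmacytoid dendritic cells summed to 422 to 584 CPM in IgA and 305 to 408 CPM in IgG cells, with CLEC4C at 0, and monocyte markers to 0 to 41.4 CPM in IgA and 54.3 to 91.6 CPM in IgG cells. Ribosomal protein genes took 15.7% to 21.0% of UMIs in IgA and 13.5% to 17.4% in IgG cells, and more in IgA cells of all 5 animals. Median UMIs per cell were 5278 to 8917 in IgA and 4073 to 7388 in IgG cells. The part of these values in the result was not tested.

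With antibody-secreting cells kept, SDF2L1 (-0.25, adjusted p = 0.684), HSPA5 (-0.13, adjusted p = 0.739) and SEC11A (0.70, adjusted p = 0.0613) were no longer called. SDF2L1 lost its call without female 3 or 4 or either male (adjusted p 0.0666 to 0.103), SEC11A without female 1, female 3 or male 2 (0.05004 to 0.121), and HSPA5 without female 3 (0.0864) or female 4 (0.0593). Within batch 2, DERL3 (1.96), MZB1 (1.51), DDIT3 (1.03) and HSPA5 (-0.55) were called, and within batch 1, DERL3 (1.65, adjusted p = 0.0106).

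**Figure D5:**
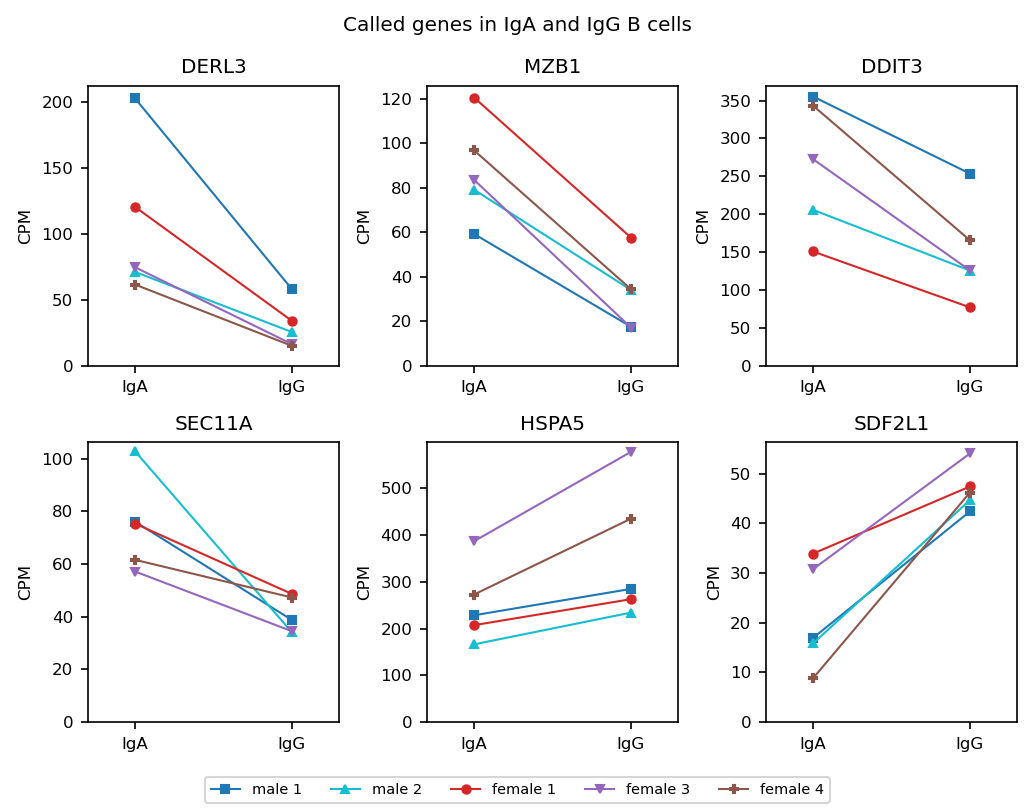
CPM of the 6 called genes in IgA and IgG B cells of the 5 animals with 10 or more cells of each class, with 1 line per animal. DERL3, MZB1, DDIT3 and SEC11A are higher and HSPA5 and SDF2L1 lower in IgA cells of all 5.

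Of 50 related genes tested, CHAC1 was higher in IgA cells (34.8 ± 17.9 CPM, against 8.44 ± 9.05 CPM in IgG cells; 2.33, adjusted p = 0.00135). ARFGAP3, a Golgi coat regulator (-0.95, adjusted p = 0.000653), ERP44, a thiol protein that retains unfinished antibody (-0.63, adjusted p = 0.00569), and TXNDC11, a thioredoxin-domain protein (-0.80, adjusted p = 0.0134), were lower, each in 5 of 5 animals, and XBP1 (-0.36, adjusted p = 0.392) was not called.

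To ask whether the secretory genes go with heavy chain transcript number outside antibody-secreting cells, the 25% of cells with the most heavy chain UMIs in each animal and subtype were set against the 25% with the fewest, 2568 cells each. Of the 41 genes 1 was called higher and 1 lower, where 2.79% of 8828 genes were called higher and 1.67% lower. MZB1 was at 32.7, 69.2 and 115 CPM in the upper group and at 16.3, 52.5 and 97.6 CPM in the lower group, higher in 6 of 6 animals (0.39, SE 0.09, adjusted p = 0.00595). HSPA5 averaged 288 ± 133 CPM in the upper and 331 ± 155 CPM in the lower group, lower in 6 of 6 (-0.21, SE 0.05, adjusted p = 0.00721). The ranges of both genes overlapped.

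DERL3 (0.09, adjusted p = 0.789), SEC11C (-0.06, adjusted p = 0.791) and HERPUD1 (-0.15, adjusted p = 0.104) were not called. Depth moved with the division, with median UMIs per cell of 4892 to 7580 in the upper and 3235 to 6337 in the lower group. When cells were ranked by heavy chain UMIs per expression UMI, 4 of the 41 genes were called higher and 0 lower, where 1.87% of 8751 genes were called higher and 1.59% lower, with DERL3 at 0.39 (adjusted p = 0.0105), MZB1 at 0.37, and HSPA5 not called (-0.08, adjusted p = 0.566). Depth then moved the other way, with median UMIs per cell of 3545 to 6611 in the upper and 4064 to 7365 in the lower group. It was lower in the upper group of every animal. Class moved with the division too, since median heavy chain UMIs per cell were 3 to 9 in switched and 7 to 18 in unswitched cells. With the 25% groups made within class as well, an alternative added after the data were seen, MZB1 (0.34, adjusted p = 0.0172) and HSPA5 (-0.22, adjusted p = 0.00675) were still called, where 2.18% of 8766 genes were called higher and 1.2% lower. MZB1 was called within batch 2 (0.40) and stood at 0.36 in batch 1 (adjusted p = 0.225), and HSPA5 was called within batch 1 (-0.27) and stood at -0.18 in batch 2 (adjusted p = 0.117). Of 57 related genes 0 were called by edgeR, 3 had an unadjusted p under 0.05, and DESeq2 called 0. Among them was XBP1 (0.04, adjusted p = 0.852).

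Male and female B cells, antibody-secreting cells left out, gave no called gene among the 41, with edgeR 0 and DESeq2 0, where 0.251% of 11151 genes were called higher and 0.126% lower. An unadjusted p under 0.05 was seen for 5 genes. SEC11C was at 49.1 and 55.0 CPM in males and at 79.2 to 90.4 CPM in females, without overlap (-0.57, SE 0.19, adjusted p = 0.187). MZB1 was at 53.7 and 72.1 CPM in males and at 17.9 to 105 CPM in females (0.20, adjusted p = 0.893), and DERL3 at 113 and 31.1 CPM in males and at 17.9 to 59.4 CPM in females (1.16, adjusted p = 0.314). HSPA5 (-0.44, adjusted p = 0.643), HERPUD1 (0.02, adjusted p = 0.988) and XBP1 (-0.38, adjusted p = 0.555) were not called, and of 59 related genes edgeR called 0 and DESeq2 2, with 7 at an unadjusted p under 0.05.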

How the data were processed

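The authors deposited raw UMI counts of 22584 genes in 13849 cells, with a cell table that gave library, subtype, doublet call (all Singlet) and the percent of UMIs from mitochondrial and ribosomal protein genes per cell, per the file headers. Receptor files held deposited counts of UMIs per contig, per the file headers. The submitters' processing notes name Seurat 5.0.1, Cell Ranger 9.0.1 and R 4.3.1. The genome build is not given in the sources used here. Cells were kept as deposited, with no doublet caller.

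Counts were summed per animal and subtype or class. Class came from the constant gene of the productive heavy chain, for the 10293 B cells with exactly 1 of known class. Unnamed identifiers (5813, 14.9% of UMIs) and 24 named immunoglobulin genes (0.186%) entered neither library sizes nor tests. Sums were tested with edgeR 4.0.16 in R 4.3.3 (filterByExpr, TMM, quasi-likelihood F test, Benjamini-Hochberg), and DESeq2 1.42.0 was an alternative. The animal was a block, since both classes came from the same animals per the labels; the male and female fit had none. The sums held 133419 to 19393488 UMIs of all genes. The scripts were tested on simulated data.

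Members and related genes were chosen with earlier results of these data known. Called genes (up to 12 per comparison) and MZB1, DERL3, SEC11C, HSPA5 and HERPUD1 were named in every test, the 10 largest and 5 smallest differences for antibody-secreting cells, 3 in each direction for other subtypes, and XBP1 with up to 3 called related genes in each direction. Other members were named after their values were seen. Alternatives were another scaling, no filter, larger sums, kept or omitted cells, blocks, batches and each animal left out.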

Additional observations from a re-analysis of the deposited data

Results flagged for a closer look

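In 4 cases a single animal stood apart from the other 5. Chance gives about 1 in 20 groups such a value. Many more than 20 groups were screened, so chance alone could give 4 such cases. MZB1 in female 1 was at 152 CPM in M-MBC 1, where the others ran from 19.1 to 67.0 CPM, at 157 CPM in M-MBC 2 (others 38.2 to 79.4 CPM) and at 112 CPM in Naive B cells 2 (others 0 to 33.0 CPM). The HERPUD1 log2 difference between switched and unswitched memory cells was 0.0221 in male 1 and 0.280 to 0.375 in the others.

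A signal also lay in cells left out of every comparison. Of the 525 cells named Contamination, 1 carried 100 or more heavy chain UMIs (IgA, 231 UMIs). The 41 genes summed to 43512 CPM in it and to 4949 CPM over all cells of that name.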

How the results depend on the processing

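The count of called genes among the 41 moved with the pairing of classes within animals. With no replicate block it was 1 for switched against unswitched cells (8 with the block), 0 within memory cells (7), 2 for IgA against IgG (6) and 0 for heavy chain groups (2). Within batch 1 it was 2, 2 and 1 in the first 3 comparisons, within batch 2 it was 4 for switched against unswitched cells and 1 for heavy chain groups. It was 13 for switched against unswitched cells with antibody-secreting cells kept, 2 within memory cells with animal and subtype as blocks, 1 for IgA against IgG within C-MBC 2, and 4 with heavy chain UMIs ranked per expression UMI. Leaving out 1 animal gave 5 to 7, 4 to 7, 3 to 5 and 2 genes in these comparisons, with the lowest counts without female 3 (5), female 1 (4) and female 3 (3). Shares over all genes are not given for the settings with no block, within a batch or with an animal left out. Those counts thus do not set the 41 genes apart from other genes. MZB1 changed sign for IgA against IgG within C-MBC 2 (-0.0556), where fewer cells and genes entered. The summed level in antibody-secreting cells was 25676 to 45231 CPM with 1 animal left out, and 10631 CPM over cells with fewer than 100 heavy chain UMIs. For single genes, 518 values kept their side of the threshold, 97 lost the call and 2 gained it. Genes called in neither fit could change sign among the 518. MZB1 in males against females, for example, ran from -0.118 to 0.572 with 1 animal left out. Over all genes DESeq2 called 434 higher and 391 lower within memory cells (edgeR 657 and 641), 109 and 66 for heavy chain groups (246 and 147), and 283 and 325 for the sexes (28 and 14). The cause of these changes was not tested. Depth limits low genes such as CRELD2 and sums of few cells.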
